A study of Rattus norvegicus with 8 samples.

Results

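The genes described are those of the insulin-like growth factor (IGF) system that the array reported in rat liver. They comprise the ligand genes Igf1 and Igf2, the receptor genes Igf1r and Igf2r, the gene of the acid-labile subunit, Igfals, and the binding protein genes Igfbp1, Igfbp2, Igfbp3, Igfbp4 and Igfbp7. The 10 genes were chosen by name from the array's gene column and are represented by 16 of its 45598 non-control probes. All 10 were among the 21701 genes tested, of 35878 genes or names on the array, and all 10 were well above background on all 8 arrays.

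The samples were livers of male Wistar rats, each hybridised to an Agilent 1-colour array that measures total RNA as Cy3 intensity. STL rats (4 arrays) were gavaged daily with butyrate-containing structured lipids, triglycerides that carry the short-chain fatty acid butyrate, at 1.65 g/kg body weight. Control rats (4 arrays) were given the carbohydrate maltodextrin at 3.0 g/kg body weight, which supplied the same energy. Rats of both groups went through the "resistant hepatocyte" procedure, a chemical model of liver cancer development, from 2 weeks after the start of treatment, and the livers were taken at 8 weeks, so neither group is a normal liver. The age of the rats, and whether the pieces held nodules or the tissue around them, are not given in the sources used here.

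Liver is the main source of circulating IGF-I. Growth hormone acting through STAT5 drives hepatic Igf1 and Igfals, and most IGF in blood travels in a complex of ligand, IGFBP-3 and the acid-labile subunit, which prolongs its life in the circulation. Insulin represses hepatic Igfbp1, so that IGFBP-1 rises in fasting and adjusts free IGF, while Igf2, Igfbp2 and other fetal growth genes are largely or partly shut down in rodent liver after birth. Adult hepatocytes carry little Igf1r, and Igf2r, the cation-independent mannose-6-phosphate receptor, takes up IGF-II for degradation.

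Probe positions are those of the files, in the rn4 build. The probes behind the main ligand comparison are shown because they read the coding part of the transcripts. The Igf1 probe A_64_P052740 lies at chr7:24587916-24587975 (plus strand), the Igfals probe A_43_P12769 at chr10:14130378-14130437 (plus strand), and each has a reading frame without a stop codon. Exon positions of the probes are not annotated in the sources used here.
Igf1 probe: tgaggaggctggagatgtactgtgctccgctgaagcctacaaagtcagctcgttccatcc
Igfals probe: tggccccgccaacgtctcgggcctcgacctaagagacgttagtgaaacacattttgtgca

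The promoters of Igfbp1 and Igfals are shown as the contrast between the insulin-repressed gene of the set and the gene that best separated the groups below. The letters are the 250 bases before the transcript start, from RefSeq, build GRCr8, plus strand for both genes, at chr14:86261027-86261276 for Igfbp1 and chr10:14403600-14403849 for Igfals. The capitals mark the insulin response element, searched as CAAAACANNNNTATTTTG, through which insulin and FOXO1 are known to act on Igfbp1.
Igfbp1 promoter: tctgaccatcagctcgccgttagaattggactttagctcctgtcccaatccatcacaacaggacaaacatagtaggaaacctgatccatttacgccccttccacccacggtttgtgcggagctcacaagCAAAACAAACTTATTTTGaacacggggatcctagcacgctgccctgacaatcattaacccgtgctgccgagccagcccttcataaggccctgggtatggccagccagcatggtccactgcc
Igfals promoter: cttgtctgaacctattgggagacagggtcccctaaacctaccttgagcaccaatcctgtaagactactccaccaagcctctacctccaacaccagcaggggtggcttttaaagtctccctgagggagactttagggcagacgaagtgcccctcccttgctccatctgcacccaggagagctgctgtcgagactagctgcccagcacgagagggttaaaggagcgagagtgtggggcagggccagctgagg

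The element occupied positions -121 to -104 relative to the start of Igfbp1, and it was found in 1 of the 33469 promoters searched on both strands (0.00299%). The pattern searched was that of the Igfbp1 element itself, so the match in Igfbp1 was given beforehand. The share does not measure how common insulin response elements are. The first bases of the element, CAAAACA, also stood alone at -67 to -61 of Igf1, and these letters occurred in 5.46% of promoters. Neither the STAT5 type element TTCNNNGAA (7.67% of promoters) nor the forkhead core GTAAACA (3.21%) was found in this window of any of the 10 genes. CAAAACA overlaps the longer element, and a match in letters is not a binding site.

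Each value below is a normalised log2 signal, the spot's processed signal on a log2 scale after the 75th percentile of its array was subtracted, so that 0 is the signal at that percentile and 1 unit is a 2-fold change. A level can be compared between arrays for 1 probe but not between probes. Signal at the 75th percentile was between 304 and 604 over the arrays, and 54.2% to 62.9% of probes were well above background. Before any group value, control 1 and control 2 were found to be near-identical: over 2062 repeated probes their difference had 0.999 times the spread between spots of 1 probe, against 2.24 to 7.63 times in the other 27 pairs of arrays. They were averaged and counted as 1 sample, which left 4 STL and 3 control samples. The sources list 4 rats per group, and whether control 1 and control 2 came from 1 rat is not known. Control 4 stood apart from the rest, lying outside the range of the other 6 samples for 7 of the 10 IGF genes, against 49.3% of all genes tested. Results are therefore also given without it.

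In brief, none of the 10 genes passed the limma test at an adjusted p of 0.05, against 0.00461% of all genes tested (1 of 21701, the STAT5 target Cish). At an unadjusted p under 0.05 by limma the count was 1 of the 10, Igfals, against 18.9% of all genes (11.5% higher and 7.42% lower). Igfals, higher in STL livers, was also the gene whose groups did not overlap, 1 of 10, against 16.8% of all genes in either direction (11.2% higher and 5.66% lower). Of the 10 genes, 7 had a higher mean in STL livers and 3 a lower one, against 12584 higher and 9117 lower of all 21701 genes tested. Igfbp1, counted as higher at 0.02, was lower with median scaling, quantile normalization or normexp background correction. The median log2 difference was 0.21 over the 10, with a range of -0.45 to 0.89, and 0.06 over all genes tested. The shares of IGF genes called by each rule were no larger than those of the array as a whole.

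**Figure D1:**
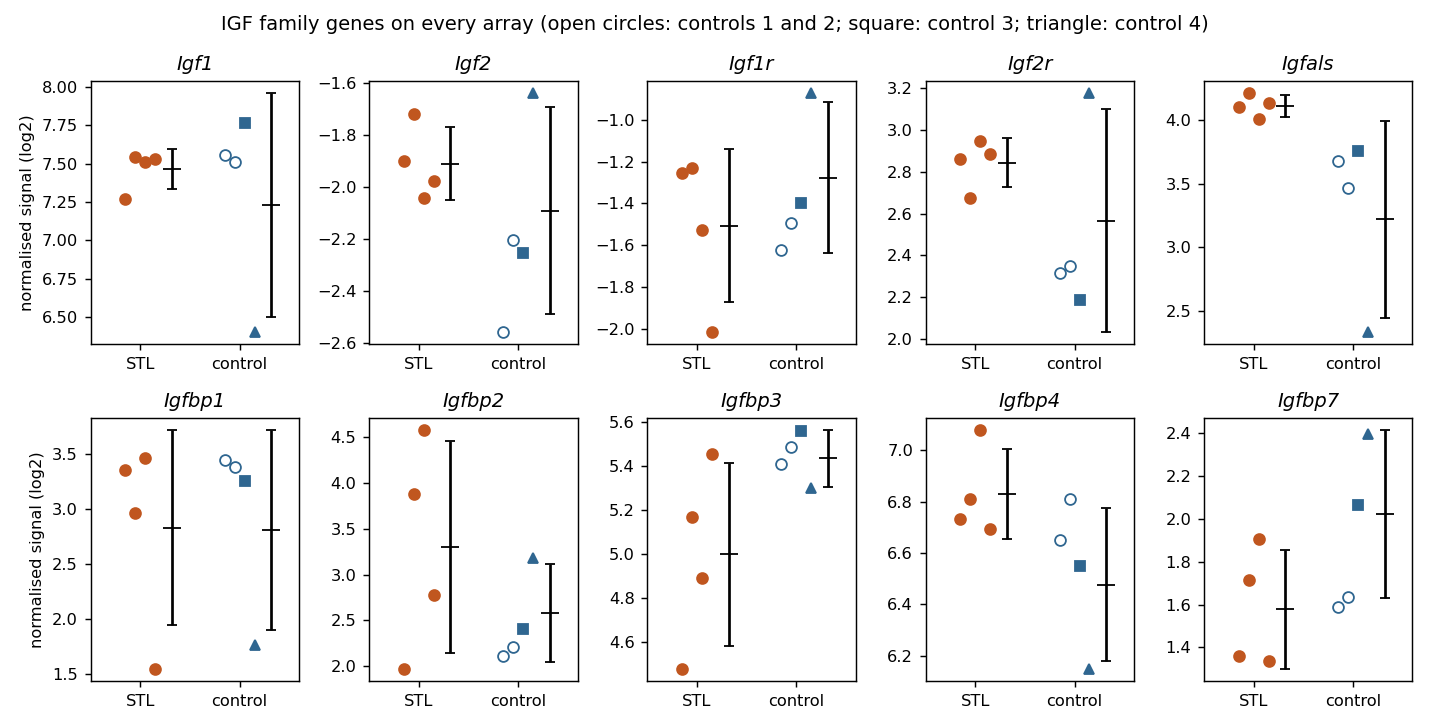
Normalised log2 signal (y axis, own scale in each panel) of the 10 IGF system genes on every array of the STL and control groups. Bars are the mean ± SD of 4 STL and 3 control samples, with controls 1 and 2 counted as 1. For Igfals, all STL arrays sit above all control arrays, and control 4 is the lowest array for Igf1 and Igfals.

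Igf1, the growth hormone-driven ligand gene, was similar on most arrays. Its signal was 7.27, 7.55, 7.51 and 7.53 in STL 5 to 8, against 7.55, 7.51, 7.76 and 6.40 in controls 1 to 4. The groups overlapped, with control 3 highest and control 4 lowest. The means were 7.46 ± 0.13 (SD, n = 4) in STL livers and 7.23 ± 0.73 (SD, n = 3) in controls, a log2 difference of 0.23 (SE 0.29, 95% interval -0.44 to 0.90, limma adjusted p = 0.681). The interval spans changes between 0.739-fold and 1.87-fold. The direction rested on control 4, without which the difference was -0.18. Over the 5 Igf1 probes, which lie between chr7:24587916 and chr7:24610838, the log2 differences were 0.23 to 0.40, and control 4 was lowest on each.

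Igf2, the fetal ligand gene, imprinted in rodents, gave a dim signal. It was -1.90, -1.72, -2.04 and -1.98 in STL 5 to 8, against -2.56, -2.20, -2.25 and -1.64 in controls 1 to 4. Control 4 was above all STL arrays and the other 3 control arrays were below all of them. The difference was 0.18 (SE 0.20, 95% interval -0.28 to 0.65, limma adjusted p = 0.639), with means of -1.91 ± 0.14 (SD, n = 4) in STL livers and -2.09 ± 0.40 (SD, n = 3) in controls. Without control 4 it was 0.41. The other Igf2 probe was well above background on 1 of 4 STL arrays and 0 of 4 control arrays, and so measured little in either group.

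Igf1r encodes the tyrosine kinase receptor through which both ligands signal. Its signal was -1.25, -1.23, -1.53 and -2.02 in STL 5 to 8, against -1.62, -1.49, -1.40 and -0.87 in controls 1 to 4. STL 8 was the lowest array, control 4 the highest, and the groups overlapped. Means were -1.51 ± 0.36 (SD, n = 4) in STL livers and -1.28 ± 0.36 (SD, n = 3) in controls, a difference of -0.23 (SE 0.24, 95% interval -0.78 to 0.32, limma adjusted p = 0.612), and -0.03 without control 4. The 2 probes disagreed in sign: a probe in coding sequence, 5′ of the brighter one, differed by 0.18, but was well above background on only 2 of 4 STL and 3 of 4 control arrays. It lies at chr1:122989150-122989209 (plus strand), and its letters are shown because it is the probe that disagrees.
Igf1r coding probe: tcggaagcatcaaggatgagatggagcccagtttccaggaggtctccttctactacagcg

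Igf2r, the gene of the clearance receptor of IGF-II, had 2.86, 2.68, 2.95 and 2.89 in STL 5 to 8, against 2.32, 2.35, 2.19 and 3.18 in controls 1 to 4. As with Igf2, control 4 alone lay above the STL arrays while the other control arrays lay below them. The means were 2.84 ± 0.12 (SD, n = 4) in STL livers and 2.57 ± 0.54 (SD, n = 3) in controls. The difference was 0.28 (SE 0.22, 95% interval -0.23 to 0.78, limma adjusted p = 0.502). It was 0.58 without control 4 but 0.09 without control 3 (limma adjusted p = 0.885), so its size rested on which control was kept. With control 4 left out and each of the other 7 arrays counted as a sample, an alternative chosen after the data were seen, the difference was 0.56 and Igf2r passed (limma adjusted p = 0.0491). That fit counts the near-identical control 1 and control 2 as separate animals.

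Igfals encodes the acid-labile subunit, the liver protein that holds IGF and IGFBP-3 in the circulating complex. Its signal was 4.11, 4.21, 4.00 and 4.13 in STL 5 to 8, against 3.68, 3.47, 3.76 and 2.33 in controls 1 to 4. All STL arrays lay above all control arrays, the STL arrays were close to each other, and control 4 was far below the other controls. The means were 4.11 ± 0.09 (SD, n = 4) in STL livers and 3.22 ± 0.78 (SD, n = 3) in controls. The log2 difference was 0.89 (SE 0.30, 95% interval 0.21 to 1.58), or 1.86-fold (1.16 to 2.99). It did not pass over all genes (limma unadjusted p = 0.0163, adjusted p = 0.196). The exact two-sided permutation p over 4 against 3 samples was 0.0571, the smallest that this design can give. Groups that did not overlap, with STL higher, were found for 11.2% of all genes. Without control 4 the difference was 0.45 (95% interval 0.18 to 0.72, limma adjusted p = 0.274), and without control 3 it was 1.16. Within the 4 slide columns, which each hold 1 STL and 1 control array, STL minus control was 0.43, 0.74, 0.25 and 1.803. Igfals was the only one of the 10 genes higher in STL in all 4, with none of the 10 lower in all 4. Since all its STL arrays lay above all its control arrays, any pairing gives positive differences. The columns thus add nothing to the lack of overlap.

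**Figure D2:**
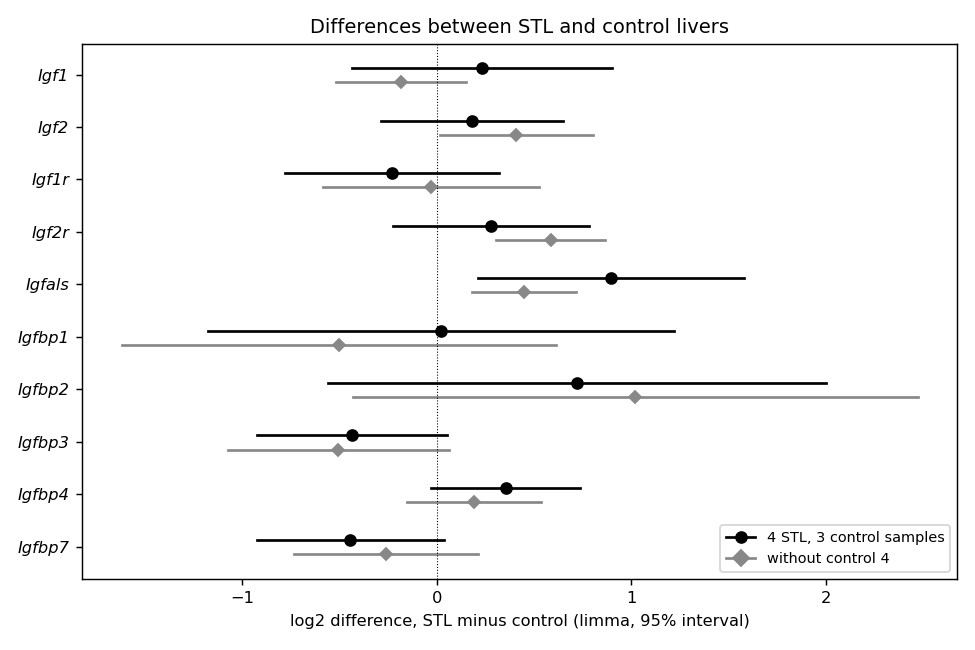
Log2 difference, STL minus control, with its 95% interval by limma (x axis) for each of the 10 genes (y axis), for all 7 samples (black circles) and without control 4 (grey diamonds). The Igfals interval, 0.21 to 1.58, lies above 0, and the Igf1 and Igfbp1 estimates change sign when control 4 is left out.

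Igf1 and Igfals, both induced by growth hormone, shared the low value of control 4, and among the controls their ratio within an array was steadier than either gene. On the brightest Igf1 probe the Igfals signal was 11.2%, 9.93%, 8.81% and 9.47% of the Igf1 signal in STL 5 to 8, against 6.80%, 6.07%, 6.23% and 5.95% in controls 1 to 4. The lowest STL array was above the highest control array, and control 4 lay close to the other controls. The log2 ratio averaged -3.35 ± 0.14 (SD, n = 4) in STL livers and -4.01 ± 0.05 (SD, n = 3) in controls, a difference of 0.66, or 1.58-fold. Percentages depend on both probes' brightness and are not a ratio of molecules, so that only their comparison between arrays carries meaning. Over the 5 Igf1 probes the difference in log2 ratio was 0.49 to 0.66, always higher in STL livers, and all STL arrays lay above all control arrays for 3 of the 5 probes. The pair was picked after its values were seen and is given with no test. Of 45 pairs of the 10 genes, the ratio did not overlap between groups in 7, and 4 of these 7 involved Igfals. The share over all pairs of genes tested was not computed, so the count of pairs has no array-wide value beside it. The ratio to Igf1 did not overlap between groups, with STL higher, for 0.65% of the other 21700 genes tested (141), and with STL lower for 2.72% (591). Igf1 was lowest in control 4 (6.40), which raises every ratio to it on that array.

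**Figure D3:**
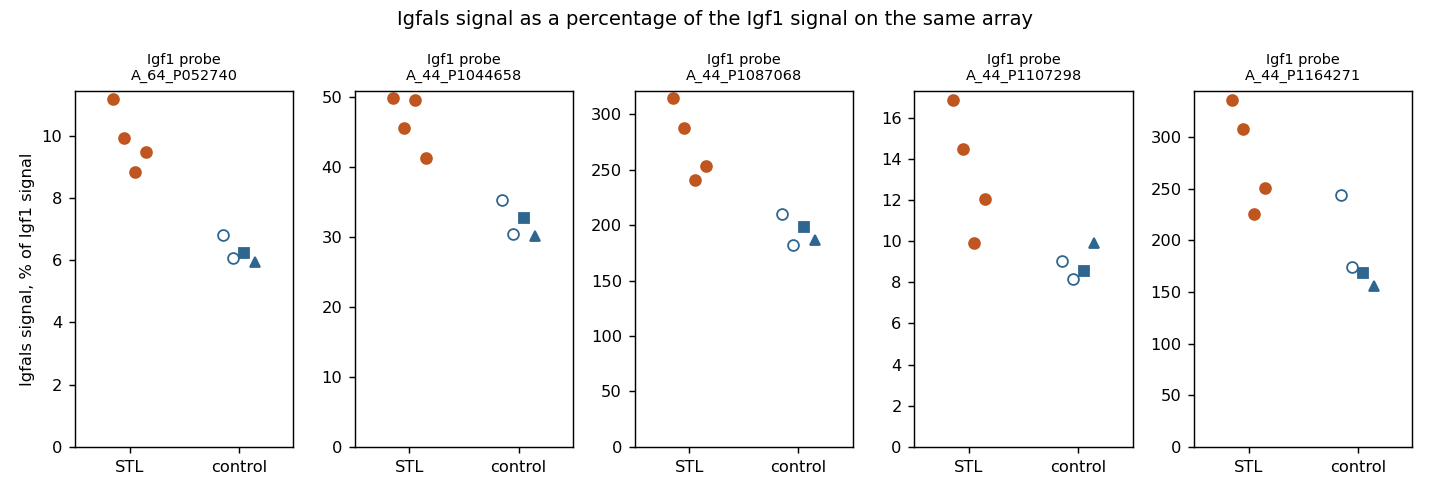
Igfals signal as a percentage of the Igf1 signal on the same array (y axis, own scale for each Igf1 probe) in STL and control livers. Each point is an array: filled circles are STL, open circles are controls 1 and 2, the square is control 3 and the triangle is control 4. On the first probe the STL arrays sit between 8.81% and 11.2% and the control arrays between 5.95% and 6.80%.

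Igfbp1 and Igfbp2 had the largest SDs of the 10 genes among the STL livers. Igfbp1, the insulin-repressed gene whose promoter is shown above, had 3.36, 2.97, 3.46 and 1.55 in STL 5 to 8, against 3.45, 3.38, 3.26 and 1.77 in controls 1 to 4. Each group thus held a single low array, STL 8 and control 4, and the others lay close together. The signal ranged 3.78-fold over the STL livers and 3.14-fold over the control samples. Means were 2.83 ± 0.88 (SD, n = 4) in STL livers and 2.82 ± 0.91 (SD, n = 3) in controls, a difference of 0.02 (SE 0.53, limma adjusted p = 0.987). Its 95% interval of -1.18 to 1.22 spans changes between 0.442-fold and 2.33-fold. Without control 4 the difference was -0.50. The low arrays, STL 8 and control 4, lay in the same column of the slide, each column holding 1 STL and 1 control array. With the slide column as a block and all 8 arrays as samples, the difference was -0.13 (SE 0.13, 95% interval -0.44 to 0.17). That interval is narrower, but the fit counts the near-identical control 1 and control 2 as separate animals. For Igf1r the same block gave a larger SE, 0.26 against 0.22 with the 8 arrays and no block. Within the 4 columns, STL minus control for Igfbp1 was -0.09, -0.42, 0.20 and -0.22. The part of the slide position in these values was not tested.

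Igfbp2, a fetal binding protein gene that remains inducible in adult liver, spread most over the STL livers. Its signal was 1.97, 3.88, 4.58 and 2.78 in STL 5 to 8, against 2.11, 2.21, 2.41 and 3.18 in controls 1 to 4. STL 7 was the highest array and STL 5 the lowest, so the controls lay inside the STL range. That range was 6.12-fold over the STL livers and 2.03-fold over the control samples. The means of 3.30 ± 1.16 (SD, n = 4) in STL livers and 2.58 ± 0.53 (SD, n = 3) in controls gave a difference of 0.72 (SE 0.56, 95% interval -0.56 to 2.002, limma adjusted p = 0.491). It was 1.02 without control 4, 1.17 without STL 5 and 0.29 without STL 7, the highest liver.

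Igfbp3 encodes the main carrier of circulating IGF and is made in rat liver largely by cells other than hepatocytes. Its signal was 4.48, 5.17, 4.89 and 5.46 in STL 5 to 8, against 5.41, 5.49, 5.56 and 5.30 in controls 1 to 4. The controls were close to each other and all but STL 8 of the STL arrays lay below them. The means were 4.998 ± 0.42 (SD, n = 4) in STL livers and 5.44 ± 0.13 (SD, n = 3) in controls, a difference of -0.44 (SE 0.21, 95% interval -0.93 to 0.05, limma adjusted p = 0.2997). It was -0.51 without control 4, the opposite direction from Igfals, its partner in the complex. Igfbp1 and Igfbp3 are neighbours on chromosome 14 on opposite strands, with 4448 bases between their probes (chr14:87954736-87954795 and chr14:87959244-87959303), and their low arrays were not the same: STL 8 was lowest for Igfbp1 and highest of the STL arrays for Igfbp3.

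Igfbp4, the gene of a binding protein that restrains IGF action, had 6.73, 6.81, 7.08 and 6.69 in STL 5 to 8, against 6.65, 6.81, 6.55 and 6.15 in controls 1 to 4. STL 7 was highest, control 4 lowest, and control 2 reached into the STL range. The difference was 0.35 (SE 0.17, 95% interval -0.03 to 0.73, limma adjusted p = 0.2899), with means of 6.83 ± 0.17 (SD, n = 4) in STL livers and 6.48 ± 0.30 (SD, n = 3) in controls, and it was 0.19 without control 4.

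Igfbp7 encodes a low-affinity, matrix-associated relative that vascular and stromal cells make. Its signal was 1.36, 1.71, 1.91 and 1.33 in STL 5 to 8, against 1.59, 1.64, 2.06 and 2.40 in controls 1 to 4. Controls 3 and 4 were above all STL arrays and controls 1 and 2 were among them. The difference was -0.45 (SE 0.21, 95% interval -0.93 to 0.03, limma adjusted p = 0.288), with means of 1.58 ± 0.28 (SD, n = 4) in STL livers and 2.02 ± 0.39 (SD, n = 3) in controls, and it was -0.26 without control 4.

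Marker genes of liver cell types bear on Igfbp3 and Igfbp7, since in whole liver fewer cells of a type and less RNA per cell cannot be told apart. Of 9 stellate cell markers, all tested, 7 were lower in STL livers (9117 of 21701 over all genes tested), 2 were higher and none passed. The list was not uniform. The collagen genes Col1a1 (-1.39), Col1a2 (-0.90) and Col3a1 (-0.75) differed most. Rgs5 (-0.02) and Lrat (-0.002), counted as lower, hardly differed, and Acta2 (0.05) and Reln (0.12) were higher. The mean level of the 9 markers was 0.74 to 1.23 in STL livers and 1.22 to 1.71 in controls, highest in control 4. For 6 sinusoidal endothelial markers tested of 8 listed, the mean was 1.9995 to 2.47 in STL livers and 2.09 to 2.19 in controls. The 8 Kupffer cell markers averaged 2.76 to 3.39 in STL livers and 3.09 to 3.19 in controls. The endothelial and Kupffer ranges of the STL livers thus enclosed those of the controls, while the stellate ranges of the groups met only at their ends. The 6 cholangiocyte and progenitor markers averaged -2.14 to -0.78 in STL livers and -0.97 to 0.38 in controls, with control 4 at the upper end. The 8 hepatocyte markers were bright on every array, at 7.55 to 7.93 in STL livers and 7.15 to 7.70 in controls, with control 4 lowest, as it was for Igf1, Igfals and Igfbp4. Among markers of other tissues, the pancreatic, fat and muscle genes Prss1, Cela1, Adipoq, Plin1 and Myh4 were not above background often enough to be tested. Of the remaining 3 of 8, Umod and Acta1 were dim on all arrays. The pancreatic enzyme gene Cpa1 was at -4.44, -1.27, -1.92 and -3.10 in STL 5 to 8, against -1.17, -1.04, -1.74 and 2.48 in controls 1 to 4, so that control 4 alone was high. Of the other pancreatic genes, Prss1 was at background on all 8 arrays, control 4 included, and Cela1 was well above background on 1 STL and 2 control arrays, control 4 among them. The part of these cell types in the IGF values was not tested.

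The 10 genes did not move together from liver to liver. Control 4 was the lowest sample for 3 of them (Igf1, Igfals and Igfbp4) and the highest for 4 (Igf2, Igf1r, Igf2r and Igfbp7). STL 7 was highest for 3 genes, STL 8 lowest for 3, and STL 5 lowest for 2. The SD was larger among the controls for 7 of the 10 genes, against 51.4% of all genes tested, and larger among STL livers for Igf1r, Igfbp2 and Igfbp3.

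**Figure D4:**
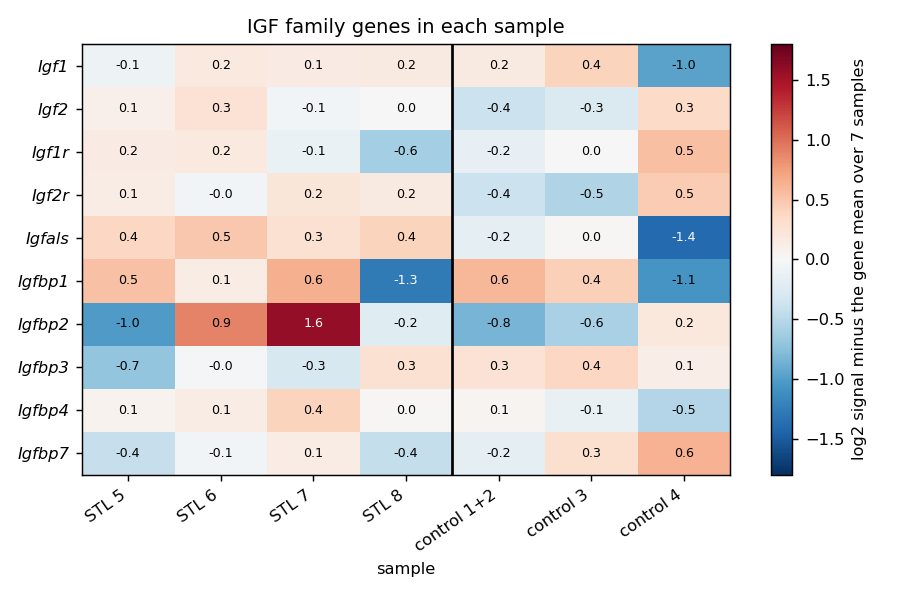
Normalised log2 signal of each gene (rows) in each of the 7 samples (columns, STL left of the line, control right), minus the gene's mean over the 7 samples; red is above and blue below that mean. Control 4 holds the deepest blue for Igfals and Igf1, and STL 7 the deepest red for Igfbp2.

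The genes whose profiles over the 7 samples were nearest to 3 of the IGF genes were sought among 13685 named genes by the root mean square difference of centred log2 values. Those nearest to Igf1 were Tmem132e (0.11), the hepatic lipase gene Lipc (0.122) and Gjb1 (0.134), the gene of a hepatocyte gap junction protein. All 3 shared its low value in control 4, which follows from how they were chosen. For Igfbp1 the nearest were further away, at 0.338 for Insyn2a, 0.347 for Junb, an immediate early transcription factor gene, and 0.347 for Klri2. Insyn2a (-6.44 to -4.27) and Klri2 (-6.12 to -3.56) were dim, so their profiles are uncertain. For Igf2 they were Agtrap (0.091), Wrn (0.094), a DNA helicase gene, and Arhgef2 (0.104).

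Other genes of the pathway were read from lists. Over all 21701 genes tested, 12584 were higher in STL livers and 9117 lower. Of 19 further IGF family genes and IGFBP proteases, 10 were tested, 5 higher and 5 lower with a median log2 difference of -0.13, and none passed. The smallest p-values were those of Mmp7, a matrix protease (-0.93, limma adjusted p = 0.286), and Ccn3, a matricellular protein gene (-0.94, adjusted p = 0.3001). Both were dim: Mmp7 was well above background on 3 of 4 STL and 4 of 4 control arrays, and Ccn3 on 2 of 4 STL and 3 of 4 control arrays. Igfbp5, next to Igfbp2 on chromosome 9, was not above background often enough to be tested. The insulin receptor gene Insr differed by 0.07 (limma adjusted p = 0.823).

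Upstream of Igf1 and Igfals, 17 genes of the growth hormone to STAT5 axis were tested, 12 higher and 5 lower, with a median of 0.09, and 1 passed, higher in STL livers. That gene was Cish, a feedback inhibitor induced by STAT5, at 0.85 ± 0.23 (SD, n = 4) in STL livers and -1.34 ± 0.16 (SD, n = 3) in controls, a difference of 2.19 (limma adjusted p = 0.00577). The growth hormone receptor gene Ghr averaged 6.34 ± 0.16 (SD, n = 4) in STL livers and 5.90 ± 0.50 (SD, n = 3) in controls, a difference of 0.44 (limma adjusted p = 0.307). Stat5b, the transcription factor that growth hormone activates, differed by 0.03 (adjusted p = 0.949). Socs2, another growth hormone-induced inhibitor, named after its values were seen, differed by -0.10 (adjusted p = 0.897).

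Downstream, 32 genes of insulin and IGF receptor signalling were tested, 19 higher and 13 lower, with a median of 0.03 and none past the threshold. The smallest p-value was that of Pik3r1, a regulatory subunit of phosphoinositide 3-kinase (0.61, limma adjusted p = 0.192). Next was Grb10, an inhibitory adaptor of both receptors (-1.10, limma adjusted p = 0.195). Grb10 was well above background on 1 of 4 STL arrays and 4 of 4 control arrays, so its STL level is near the background and its difference uncertain. Foxo1, the transcription factor that insulin excludes from the nucleus, differed by 0.48 (adjusted p = 0.208). Among 13 genes that FOXO1 activates and insulin lowers, the list to which Igfbp1 belongs in function, 6 were higher and 7 lower, with a median of -0.20 and none past the threshold. Trib1, a pseudokinase gene, differed by 1.44 (limma adjusted p = 0.162) and Irs2, an insulin receptor substrate gene, by 0.65 (adjusted p = 0.217). Of 13 genes of fetal growth, most of them imprinted like Igf2 and Igf2r (Afp and Gpc3 are not), 7 were higher and 6 lower, with a median of 0.04 and none past the threshold. Mest differed by -1.19 (limma adjusted p = 0.1696) and the noncoding RNA gene Meg3 by 0.68 (adjusted p = 0.179). The median log2 differences of the 5 lists thus lay between -0.20 and 0.09, on both sides of the 0.06 of all genes tested. A median near 0 can hide moves in both directions, and the fetal growth genes ranged from -1.78 to 0.68. At an unadjusted p under 0.05 by limma, 3 of these 13 were higher and 4 lower, against 11.5% and 7.42% of all genes. The counts were 0 and 0 of 10 IGF family and protease genes and 3 and 0 of 17 growth hormone genes. They were 4 and 2 of 32 signalling genes and 2 and 1 of 13 FOXO1 genes.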

How the data were processed

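The authors deposited scanner files with the intensity of each spot, made with Agilent Feature Extraction (version 11.5.1.1 per the file headers, 10.7 per the submitters' processing notes), and a series table of intensity. Of the 8 columns there, 6 held values of a different array than the column names, always from the same group, so the numbering of rats inside each group is not settled. All 8 arrays shared 1 slide and 1 scan time.

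Spots flagged as outliers were left out and none was saturated. Log2 of the processed signal minus the array's 75th percentile was used. Probes were named through RefSeq tables, 23740 by accession, 5159 by symbol and 352 by synonym, and 16347 kept the name in the files. The brightest probe stood for a gene, and a gene was tested if well above background (on a share of at least 0.5 of its spots) on 4 or more of 8 arrays. STL and control samples were compared by limma 3.58.1 (R 4.3.3; lmFit, eBayes with trend, two-sided, Benjamini-Hochberg over 21701 genes, threshold 0.05). The sources list 4 rats per group, but nothing beyond the labels ties each array to a rat, so p-values measure the spread between these samples. The number of arrays limits the precision. Exact permutation tests were made over samples.

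The members, lists and tests were chosen with earlier results of these data known. Named were all 10 genes and their probes, per list the genes past the threshold or else the 2 smallest p-values, 5 genes of the growth hormone and insulin axes whatever their values, and the 3 nearest profiles of Igf1, Igfbp1 and Igf2. Alternatives covered scaling, background, filter, probe choice, weights, slide column, the authors' table and leaving out samples.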

Additional observations from a re-analysis of the deposited data

Results flagged for a closer look

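On the brightest of the 5 Igf1 probes, STL 5 had 7.27, below the other STL livers at 7.51 to 7.55. The gap of STL 5 to the nearest liver was 0.869 of the group's range, above the critical value of 0.829 for 4 samples. That range was only 1.21-fold. On the Igf1 probe A_44_P1044658, STL 7 (5.02) was lower than STL 5 (5.11). The Igf1 probes other than the brightest were not checked by this rule. The 10 genes were checked in the STL livers only, since 3 control samples are too few, and chance alone marks about 1 in 20 such groups.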

How the results depend on the processing

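The labels number the controls 1 to 4 and the STL rats 5 to 8, so replicate numbers pair no samples, and the slide column, which holds 1 array of each group, was the only block fitted. Of 190 results for the 10 genes under 19 other settings, 178 kept their direction and side of the threshold and 12 turned direction, all for Igf1 or Igfbp1. In none of the 19 did any of the 10 pass (limma, adjusted p under 0.05), while between 1 and 3 had an unadjusted p under 0.05. The Igf1 difference was -0.11 with array weights and between -0.18 (without control 4) and 0.50 (without control 3) when 1 sample was left out. The Igfbp1 difference was -0.13 with each of the 8 arrays as a sample, -0.13 with the slide column as a block, -0.025 with median scaling, -0.045 with quantile normalization, -0.016 with normexp and -0.70 with array weights. With 1 sample left out it was between -0.50 (without control 4) and 0.45 (without STL 8), and -0.16 without STL 5, -0.025 without STL 6 and -0.19 without STL 7. The genes past the threshold over the whole array numbered 1, but 21 with each of the 8 arrays as a sample, 213 with control 1 and 2 both left out and 1588 with array weights. Leaving out control 3, control 4 or 1 STL sample at a time gave 1 to 46, with 46 without STL 6 and 3 without control 3. In the alternative added after the data were seen, without control 4 and with each of the other 7 arrays as a sample, 124 genes and 1 of the 10, Igf2r, passed, and Igf1 was at -0.15 and Igfbp1 at -0.53. The causes were not tested. For the other 8 genes, control 3, control 4 or 1 STL sample was left out at a time. The differences were then 0.10 to 0.41 for Igf2, -0.32 to -0.03 for Igf1r and 0.09 to 0.58 for Igf2r. They were 0.45 to 1.16 for Igfals, 0.29 to 1.17 for Igfbp2 and -0.59 to -0.26 for Igfbp3. Those of Igfbp4 were 0.19 to 0.40 and those of Igfbp7 -0.55 to -0.26. With control 1 and 2 both left out, values outside these ranges were 0.04 for Igf2, -0.37 for Igf1r, 0.48 for Igfbp4 and -0.65 for Igfbp7. The difference in log2 ratio of Igfals to Igf1 was 0.58 to 0.74 over 20 alternatives. The median difference of all genes was 0.06, and it was 0.02 with median scaling, 0.11 with normexp and 0.16 with no filter. With 4 against 3 samples and no block, the 95% interval reached more than 2-fold on either side for Igfbp1 and up to 4.01-fold for Igfbp2.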
